A study of Mus musculus with 33 samples.

Results

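A set of 10 genes commonly read as the state of the epithelial-mesenchymal transition were followed in sorted mammary epithelial and tumor cells: Cdh1, Epcam, Grhl2, Cdh2, Vim, Snai1, Zeb1, Zeb2, Twist1 and Twist2. They were chosen by name, and all 10 were found among the 55487 genes of the count table and were among the 36527 genes tested. In the transition, epithelial cells loosen the junctions built on E-cadherin and take up a migratory, mesenchymal state. Transcription factors of the Snail, Zeb and Twist families repress the epithelial genes by binding short E-box motifs in their promoters, while Grhl2 and microRNAs of the miR-200 family hold the Zeb factors down. In the mammary gland the luminal cells are rich in E-cadherin, whereas the basal (myoepithelial) cells that surround them share some genes with mesenchymal cells, among them Vim, Snai2 and the contractile proteins of smooth muscle.

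The study compared mammary tumors and tumor-free mammary glands of mice with an intact parathyroid hormone-related protein gene (PTHrP WT, Pthrpwt/wt) and of mice in which the gene was floxed and deleted in the mammary epithelium (PTHrP KO, Pthrpflox/flox). All 33 mice carried MMTV-Cre and the mT/mG reporter, which turns from a red to a green membrane protein in cells where Cre has acted, and the tumor-bearing mice also carried the MMTV-PyMT oncogene. The MMTV promoter drives both the Cre and the oncogene, and is active mainly in mammary epithelium, so recombination follows that promoter and not a single cell type. Each library was total RNA, depleted of ribosomal RNA, from GFP+ cells that had been digested from the tissue, kept for 2 days in culture with serum and sorted. WT tumors came from weeks 6, 8 and 10 (3 mice each) and week 12 (1 mouse), KO tumors from weeks 8, 10 and 12 (3 mice each), WT glands from weeks 6, 8, 10 and 12 (2 mice each) and KO glands from weeks 8, 10 and 12 (2 mice each). By stage, WT weeks 6, 8 and 10 were matched to KO weeks 8, 10 and 12.

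Libraries held 28419983 to 130981596 counted reads. Reads on ribosomal RNA genes made up 0.00296% to 0.447% of the WT libraries and 0.00331% to 18.8% of the KO libraries. The targeted gene itself, Pthlh, had a median of 5.79 CPM (reads scaled to a common library size) in WT glands, 2.65 in WT tumors, 3.49 in KO glands and 1.64 in KO tumors. The ranges of both genotypes overlapped, and since the row sums reads over the whole gene, it does not check the deleted exon. In the glands the basal markers summed to 4184 to 18362 CPM and the luminal markers to 5107 to 9214 CPM, with all 10 markers of each list detected in every library, so the gland libraries held both epithelial lineages. Sorted cells were pooled within a library, so fewer cells of a type and less RNA per cell cannot be told apart.

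The Snail and Zeb factors bind the E-box CACCTG, whose reverse complement is CAGGTG, and both strands were searched for it. RefSeq promoters (250 bases before to 50 after the start, build GRCm38.p6) were at hand for Epcam, Vim, Zeb2, Snai1, Twist1 and Twist2. The Epcam promoter held 2 such sites and the Snai1 promoter 1, while these letters were not in the windows of Vim, Twist1, Twist2 or any of the 4 Zeb2 starts. Of 32851 promoters of the same length, 20.2% held at least 1 site and 2.88% held 2 or more. Both promoters with sites are shown because Epcam is an epithelial gene of the kind these factors bind and Snai1 is one of the factors, and the capitals mark the E-boxes. The Epcam window is chr17:87635729-87636028 on the plus strand and the Snai1 window is chr2:167537945-167538244 on the plus strand.
Epcam: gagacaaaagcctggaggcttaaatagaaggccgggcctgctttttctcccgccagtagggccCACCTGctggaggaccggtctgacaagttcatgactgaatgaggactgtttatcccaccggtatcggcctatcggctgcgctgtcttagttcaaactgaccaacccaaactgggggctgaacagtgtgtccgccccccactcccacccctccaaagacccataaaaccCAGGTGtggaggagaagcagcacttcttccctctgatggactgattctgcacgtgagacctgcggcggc
Snai1: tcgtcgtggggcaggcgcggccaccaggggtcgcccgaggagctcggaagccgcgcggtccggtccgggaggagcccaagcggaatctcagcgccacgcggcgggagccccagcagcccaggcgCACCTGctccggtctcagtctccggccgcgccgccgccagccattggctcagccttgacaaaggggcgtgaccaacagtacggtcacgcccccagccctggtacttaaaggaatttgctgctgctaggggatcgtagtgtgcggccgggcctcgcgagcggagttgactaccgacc
These matches describe letters only. No binding was measured in these libraries.

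The levels of the 10 genes spanned 4 orders of magnitude in the same cells, with Epcam and Cdh1 highest and Twist2 lowest by their medians. Per kilobase of exon (the union of annotated exons, GENCODE M21), Epcam had a median of 347 CPM over the 33 libraries and Cdh1, the gene of E-cadherin, 166 CPM. Epcam lay above Cdh1 in 33 of 33 libraries, and the lowest Cdh1 library (132 CPM per kb) lay above the highest Vim library (48.2 CPM per kb). Vim, which encodes the intermediate filament protein vimentin, had a median of 23.9 CPM per kb and lay above Grhl2 (14.2 CPM per kb) in 31 libraries. Grhl2, the factor that maintains epithelial junction genes, lay above Cdh2 (6.62 CPM per kb) in 29 libraries, and Cdh2, the gene of N-cadherin, lay above Snai1 (2.62 CPM per kb) in 27. The other factors were lower still. Zeb1 had 0.441 CPM per kb, Twist1 0.187, Zeb2 0.182 and Twist2 0.0335, and Twist1 lay above Zeb2 in only 20 of 33 libraries, so the order of that pair is not settled. The weakest genes rest on few reads: Twist1 had 0 to 81 reads per library and Twist2 0 to 73, against 15813 to 108079 for Cdh1.

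**Figure D1:**
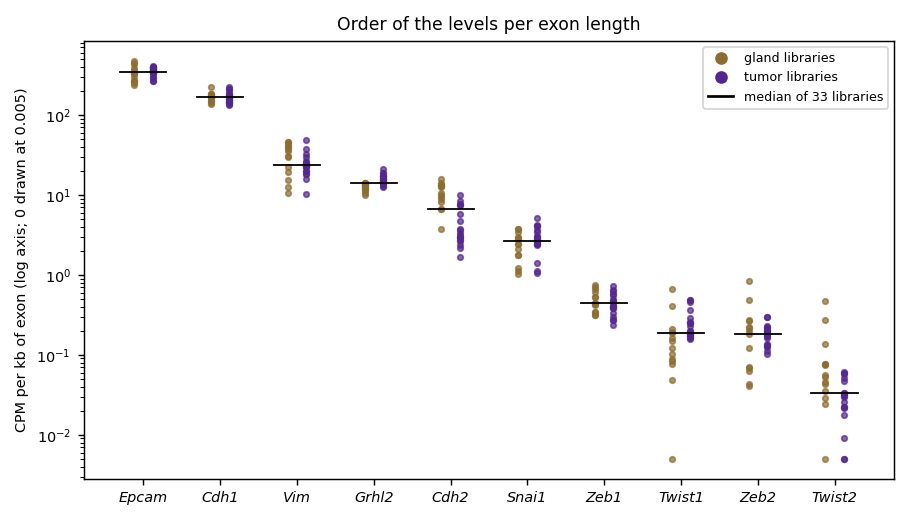
Level of each gene in CPM per kilobase of exon on a log axis, with 1 point for each of the 14 gland and 19 tumor libraries and a line at the median of all 33 (libraries at 0 are drawn at the foot). Epcam and Cdh1 stand clear of the other 8 genes, and Snai1 has the highest median of the 5 Snail, Zeb and Twist genes among them.

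The first question was how the genes differ between tumor cells and cells of tumor-free glands. In PTHrP WT mice, 4 of the 10 genes fell in tumors and none rose: Cdh2 (3.18-fold), Twist2 (3.81-fold), Zeb2 (2.00-fold) and Vim (1.52-fold). In PTHrP KO mice, Cdh2 fell 1.90-fold, while Zeb2 rose 1.76-fold and Twist1 rose 2.65-fold. Cdh1 and Epcam were called in neither genotype. The WT calls of Zeb2, Twist2 and Vim were lost when 2 WT glands were left out, as given with the fibroblast markers, and that of Cdh2 was not. A gene was called when it passed a 1.5-fold change and an adjusted p under 0.1 in edgeR's quasi-likelihood test, with weeks 6, 8 and 10 averaged for WT and weeks 8, 10 and 12 for KO. Over all 36527 genes tested, 15.7% were called in the WT comparison (9.53% lower, 6.21% higher) and 10.6% in the KO comparison (5.44% lower, 5.16% higher). The median log2 fold change of the 10 genes was -0.27 in WT and 0.15 in KO, against 0.03 and 0.09 over all genes.

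**Figure D2:**
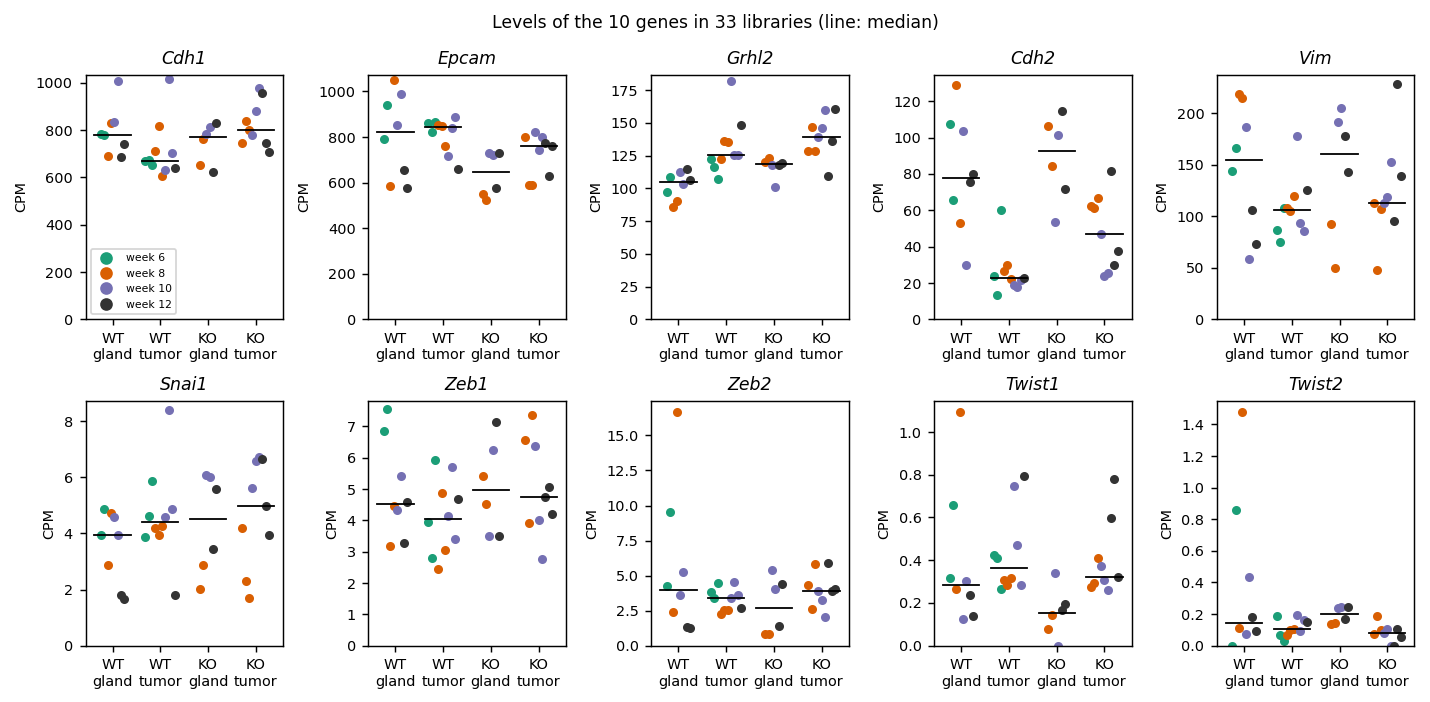
CPM of each gene in every library, by genotype and tissue, with points colored by week and a line at the median of the libraries. Cdh2 is lower in tumors of both genotypes, Cdh1 and Epcam overlap between all 4 sets, and single WT glands of weeks 6 and 8 carry the highest Zeb2, Twist1 and Twist2 levels of the glands.

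Cdh2 was the 1 gene of the 10 called in the same direction in both genotypes. In WT glands it ranged from 30.1 to 129 CPM with a median of 77.7 (n = 8), and in WT tumors from 13.3 to 60.0 CPM with a median of 22.5 (n = 10). KO glands ranged from 53.4 to 114 CPM with a median of 92.9 (n = 6), and KO tumors from 24.0 to 81.4 CPM with a median of 46.8 (n = 9). Tumor levels lay below the lowest gland in 8 of 10 WT tumors and in 5 of 9 KO tumors, so the ranges overlapped in both genotypes. The log2 fold change was -1.67 ± 0.29 (SE) in WT (edgeR adjusted p = 0.000113) and -0.92 ± 0.29 in KO (edgeR adjusted p = 0.0313). Week by week it was -1.42, -1.79 and -1.79 in WT (weeks 6, 8 and 10) and -0.59, -1.27 and -0.91 in KO (weeks 8, 10 and 12), negative throughout, and passed the test within a week at WT weeks 8 and 10. Those weekly calls were lost without the gland of replicate 1 of the week (-1.02 and -0.63, edgeR adjusted p = 0.442 and 0.713) or without 1 tumor (week 8 replicate 3, week 10 replicate 1). The WT call stood in each of the 32 fits that left out 1 library. In KO it was lost without the gland of week 12 replicate 1 (-0.79, edgeR adjusted p = 0.113) and without the gland of week 10 replicate 2 (-0.74, edgeR adjusted p = 0.15).

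Basal cell genes moved in the same direction as Cdh2. All 10 of the basal or myoepithelial markers fell in tumors of each genotype, and their summed level had a median of 8566 CPM in WT glands, 1637 in WT tumors, 9515 in KO glands and 1562 in KO tumors. No tumor library (623 to 4014 CPM) reached the lowest gland library (4184 CPM). Of the 10 luminal markers 2 rose and 5 fell in WT tumors and 2 rose and 4 fell in KO tumors, shares of 70% and 60% against 15.7% and 10.6% over all genes. Across the 14 glands, Cdh2 and the summed basal markers, both on a log2 scale, had a Pearson r of 0.764, and across the 19 tumors r was 0.136. These points share library, depth and normalization. The part of basal cells in the Cdh2 result was not tested.

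Vim fell in WT tumors by less. It ranged from 59.1 to 218 CPM in WT glands (median 155) and from 74.7 to 178 CPM in WT tumors (median 107), so every tumor lay within the range of the glands. The log2 fold change was -0.60 ± 0.23 in WT (edgeR adjusted p = 0.0674), just past the fold limit, and -0.12 ± 0.23 in KO (edgeR adjusted p = 0.996), where glands had 49.6 to 205 CPM and tumors 48.2 to 229 CPM. The WT call was lost in 10 of the 32 fits without 1 library, and without the WT gland of week 10 replicate 1 the change was -0.25 (edgeR adjusted p = 0.521). Per 1000 Cdh1 reads, Vim had a median of 199 reads in WT glands, 141 in WT tumors, 208 in KO glands and 145 in KO tumors. Cdh2 had 109, 36.0, 118 and 59.9 reads by the same measure.

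**Figure D3:**
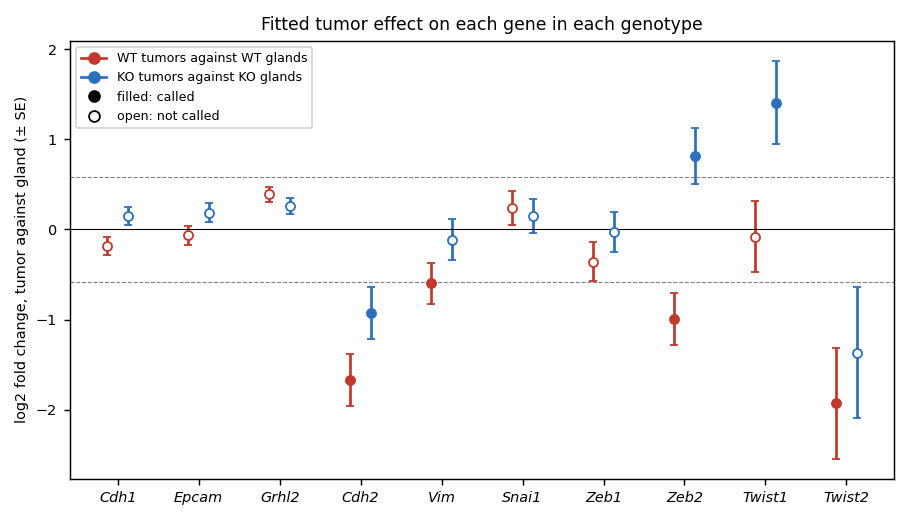
Fitted log2 fold change of each gene in tumors against glands, with its standard error, for WT (red) and KO (blue). Dashed lines mark a 1.5-fold change, filled points were called, and Cdh2 is filled below 0 in both genotypes while Zeb2 is filled on opposite sides.

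None of the 3 epithelial genes was called in either genotype. Cdh1 had medians of 782 CPM in WT glands, 671 in WT tumors, 772 in KO glands and 802 in KO tumors. Its log2 fold change was -0.19 ± 0.10 in WT (edgeR adjusted p = 0.221) and 0.15 ± 0.10 in KO (edgeR adjusted p = 0.431). Cdh1 lay below the lowest gland in 6 of 10 WT tumors and above the highest gland in 4 of 9 KO tumors. For Epcam, an adhesion protein of epithelial cells, the medians were 824, 844, 647 and 761 CPM in the same order, with changes of -0.07 ± 0.10 and 0.19 ± 0.10, and 6 of 9 KO tumors lay above the highest gland. Grhl2 had 85.8 to 115 CPM in WT glands and 108 to 182 CPM in WT tumors, and 9 of 10 WT tumors lay above the highest gland. In KO mice it had 101 to 123 CPM in glands and 110 to 160 CPM in tumors, with 8 of 9 tumors above the highest gland. The Grhl2 change was 0.39 ± 0.09 in WT (edgeR adjusted p = 0.00183) and 0.26 ± 0.09 in KO (edgeR adjusted p = 0.0435), which is 1.31-fold and 1.20-fold and so under the fold limit. None of the 10 genes separated tumors from glands without overlap in either genotype, whereas 3.61% of all genes did so in WT and 3.43% in KO.

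Zeb2, a repressor of Cdh1, moved in opposite directions in the fits of the 2 genotypes. WT glands of week 6 had 4.28 and 9.53 CPM, those of week 8 had 2.44 and 16.7, those of week 10 had 3.64 and 5.25, and those of week 12 had 1.35 and 1.26. WT tumors lay between 2.25 and 4.56 CPM, all within the range of the WT glands. KO glands of week 8 had 0.805 and 0.866 CPM (41 and 18 reads), those of week 10 had 5.42 and 4.02, and those of week 12 had 1.38 and 4.38. KO tumors lay between 2.07 and 5.91 CPM, so tumors of both genotypes spanned a narrow band and the glands a wide one. The Zeb2 change was -0.997 ± 0.287 in WT (edgeR adjusted p = 0.0144) and 0.82 ± 0.31 in KO (edgeR adjusted p = 0.0843). In single weeks it was called in WT at week 8 (-1.97 ± 0.50, edgeR adjusted p = 0.0123) and in KO at week 8 (2.35 ± 0.58, edgeR adjusted p = 0.0353). The KO call of week 8 was lost without either KO gland of that week (2.3 and 2.4) or the tumor of replicate 3 (2.06). Without the WT gland of week 8 replicate 2 the WT change was -0.34 (edgeR adjusted p = 0.428) and that of week 8 alone was 0.00, and without the gland of week 6 replicate 2 it was -0.77 (edgeR adjusted p = 0.103). The KO call was lost in 10 of 32 fits without 1 library, with a range of 0.62 to 1.19 over all 32. Reads on the antisense gene Zeb2os, which overlaps Zeb2 exons on the other strand, numbered 0 to 7 per library.

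Twist2 and Twist1, basic helix-loop-helix factors of mesenchymal cells, were near the limit of detection. Twist2 in WT glands had 0 and 0.857 CPM at week 6, 0.111 and 1.48 at week 8, 0.0770 and 0.432 at week 10, and 0.179 and 0.0914 at week 12. WT tumors had 0.0293 to 0.192 CPM, within the range of the glands. The change in WT was -1.93 ± 0.62 (edgeR adjusted p = 0.0281). That call was lost without the gland of week 8 replicate 2 (-0.99), of week 10 replicate 2 (-1.41) or of week 6 replicate 2 (0.59). The last fit leaves 1 gland at week 6, with 0 Twist2 reads, so its turn in sign rests on a group at 0. In KO mice Twist2 lay below the lowest gland (0.137 CPM) in 8 of 9 tumors, with a change of -1.37 ± 0.73 that was not called (edgeR adjusted p = 0.272). Twist1 in KO glands had 0.0785 and 0.144 CPM at week 8, 0.341 and 0 at week 10, and 0.166 and 0.197 at week 12, which is 0 to 10 reads per library. KO tumors had 0.258 to 0.781 CPM, and 4 of 9 lay above the highest KO gland. The Twist1 change was 1.41 ± 0.46 in KO (edgeR adjusted p = 0.0427) and -0.08 ± 0.39 in WT (edgeR adjusted p = 1). Without the KO gland of week 10 replicate 1, which leaves 1 gland with 0 reads at that week, the KO value was 3.45 (edgeR adjusted p = 0.000567). The call was lost without the KO gland of week 8 replicate 1 (1.25, edgeR adjusted p = 0.166) or of week 10 replicate 2 (1.05, edgeR adjusted p = 0.109).

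The 2 WT glands with the highest Zeb2, Twist1 and Twist2 were also those with the most RNA of fibroblast genes. The 10 fibroblast markers summed to 818 CPM in the WT gland of week 8 replicate 2 and to 247 CPM in that of week 6 replicate 2, against 15.3 to 85.6 CPM in the other 6 WT glands and 12.0 to 156 CPM in WT tumors. The median of this sum was 34.8 CPM in WT glands and 37.6 CPM in WT tumors. Of the 10 markers, 6 fell and 0 rose in WT tumors over all libraries, where 15.7% of all genes were called. Their median log2 fold change in WT was -1.75 over all libraries and 0.91 without both glands. The 2 glands were picked by this sum, so a move upward was set by the choice. In KO tumors 0 markers were called by edgeR and 2 by DESeq2, both higher (10.6% and 11.2% of all genes called). In KO 1 marker had an unadjusted p under 0.05, as did 8516 of all 36527 genes. All 10 markers had reads in both glands, and over the 33 libraries Dpt had none in 10 libraries and Lum none in 6. With both glands left out, Zeb2 was at -0.11 (edgeR adjusted p = 0.945), Twist2 at 1.52 (edgeR adjusted p = 0.43), Vim at -0.57 (edgeR adjusted p = 0.216) and Cdh2 at -1.94 (edgeR adjusted p = 8.62e-05), so that Cdh2 was the 1 gene still called. The Twist2 value of 1.52 rests on a week 6 group of 1 gland with no Twist2 reads. Over the 14 glands the summed fibroblast markers had a Pearson r of 0.818 with Twist2, 0.748 with Zeb2 and 0.685 with Twist1 on the log2 scale, and over the 19 tumors 0.624, -0.284 and 0.244. The part of fibroblast RNA in these results was not tested beyond these values.

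**Figure D4:**
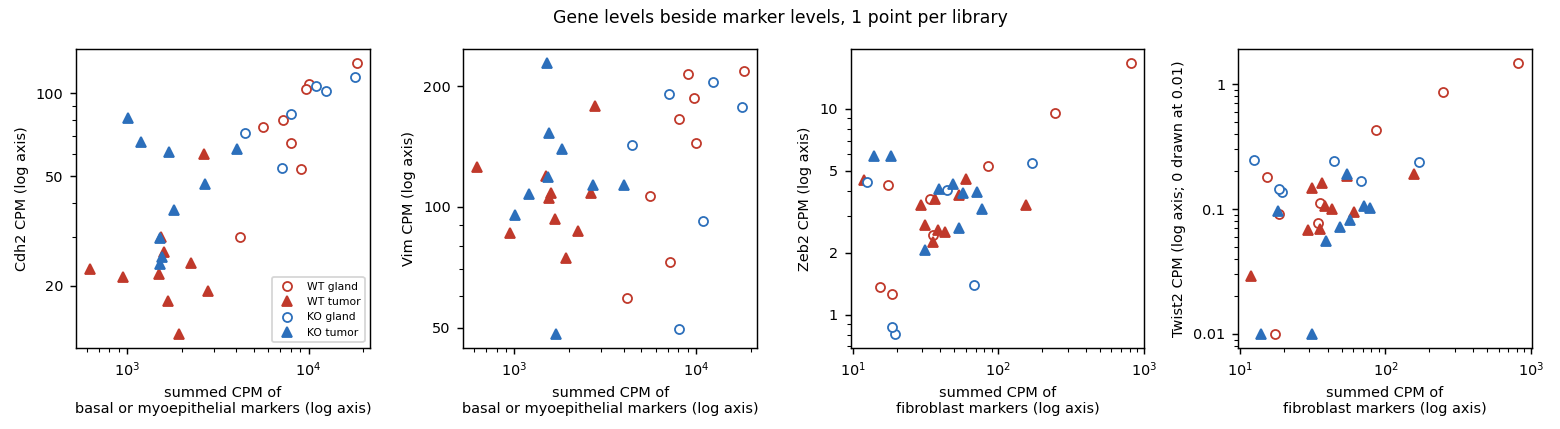
Cdh2 and Vim against the summed basal markers, and Zeb2 and Twist2 against the summed fibroblast markers, in CPM on log axes with 1 point per library (circles are glands, triangles are tumors). The WT gland at the far right of both fibroblast panels, at 818 CPM, has the highest Zeb2 (16.7 CPM) and Twist2 (1.48 CPM) of the 33 libraries.

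Snai1 and Zeb1, the remaining repressors, did not pass the test. Snai1 had medians of 3.95 CPM in WT glands, 4.42 in WT tumors, 4.51 in KO glands and 4.98 in KO tumors, with changes of 0.24 ± 0.19 in WT and 0.15 ± 0.19 in KO. Zeb1 had medians of 4.52, 4.05, 4.97 and 4.74 CPM in the same order, with changes of -0.36 ± 0.22 and -0.03 ± 0.22. Libraries of each set overlapped widely for both genes.

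Snai2 (Slug), a Snail family factor known from basal mammary cells and not one of the 10 genes, fell in tumors of both genotypes. It had 11.8 to 37.3 CPM in WT glands and 2.83 to 11.4 CPM in WT tumors, and 17.1 to 50.4 CPM in KO glands and 7.03 to 15.6 CPM in KO tumors. No tumor reached a gland of its genotype. Its log2 fold change was -1.90 ± 0.25 in WT (edgeR adjusted p = 3.63e-06) and -1.86 ± 0.25 in KO (edgeR adjusted p = 8e-06).

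The second question was whether deletion of PTHrP changed these effects. None of the 10 genes was called for a difference between the tumor effects, either at matched stage (0.14% of all genes called) or at matched age (0.00548% called). An unadjusted p under 0.05 was found for 3 and 1 of them, beside 3784 and 2038 of all 36527 genes. Zeb2 came closest. Its effect in WT was lower than in KO by 1.81 ± 0.42 on the log2 scale at matched stage (edgeR adjusted p = 0.109) and by 1.95 ± 0.52 at matched age (edgeR adjusted p = 0.546), and DESeq2 called it in both. Without 1 library the stage-matched Zeb2 value was called in 7 of 32 fits, and ran from -2.16 without the KO gland of week 12 replicate 2 (edgeR adjusted p = 0.0621) to -1.16 without the WT gland of week 8 replicate 2 (edgeR adjusted p = 0.333). The age-matched value was -0.97 without that WT gland and -2.36 (edgeR adjusted p = 0.0443, called) without replicate 1 of the same week. For Cdh2 the difference was -0.75 ± 0.41 (edgeR adjusted p = 0.575) at matched stage, and -0.36 (edgeR adjusted p = 0.97) without the WT gland of week 10 replicate 1. The Cdh2 value at matched age was -0.86, and -0.28 without that gland. For Twist1 the difference was -1.49 ± 0.60 (edgeR adjusted p = 0.373), and -3.53 (edgeR adjusted p = 0.114) without the KO gland of week 10 replicate 1.

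Tumors of the 2 genotypes were then compared with each other. No gene of the 10 was called at matched stage (1.11% of all genes called) or at matched age (0.512% called). At an unadjusted p under 0.05 were 3 and 1 of them, beside 4832 and 3996 of all 36527 genes. Cdh2 was the nearest to a call. WT tumors of weeks 6, 8 and 10 had mean levels of 32.5 ± 24.4, 26.3 ± 4.08 and 19.4 ± 2.01 CPM (SD, n = 3 each), and KO tumors of weeks 8, 10 and 12 had 63.5 ± 2.92, 32.1 ± 12.7 and 49.6 ± 27.8 CPM. The WT level was lower by 0.87 ± 0.26 on the log2 scale at matched stage (edgeR adjusted p = 0.117) and by 1.00 ± 0.32 at matched age (edgeR adjusted p = 0.22), and DESeq2 called it in both. The Snai2 difference at matched stage was -0.68 ± 0.23 and was not called (edgeR adjusted p = 0.18). Reads on ribosomal RNA were over 0.5% in 6 of the 9 KO tumors and in none of the WT tumors. Without the 10 KO libraries over that share, 1 KO tumor was left per week and the Cdh2 value was -0.90 (edgeR adjusted p = 0.957). Beyond this and the fit with the share as a covariate, given with the processing, the part of ribosomal RNA in these comparisons was not tested.

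In glands, 0 of the 10 genes were called between genotypes by edgeR or by DESeq2 (0.906% of all genes called by edgeR). An unadjusted p under 0.05 was found for 3 of them, beside 4514 of all 36527 genes. Epcam was higher in WT glands by 0.29 ± 0.11 on the log2 scale (edgeR adjusted p = 0.27), Zeb2 by 0.77 ± 0.33 (edgeR adjusted p = 0.339), and Grhl2 was lower by 0.19 ± 0.09 (edgeR adjusted p = 0.402). Cdh2 did not pass either, at -0.18 ± 0.32. Ribosomal RNA reads had a median share of 6.2% in KO glands and 0.0116% in WT glands, and the fit with this share as a covariate is given with the processing. The Zeb2 value was 0.11 without the WT gland of week 8 replicate 2 and 1.04 (edgeR adjusted p = 0.0686, called) without replicate 1 of that week. Twist1 was at 1.03 ± 0.50 (edgeR adjusted p = 0.409), and at 3.08 (edgeR adjusted p = 0.0578, called) without the KO gland of week 10 replicate 1.

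The third question was progression from the early to the late stage. No gene of the 10 was called between WT tumors of week 10 and week 6 (0.011% of all genes called) or between KO tumors of week 12 and week 8 (0% called), by edgeR or by DESeq2. At an unadjusted p under 0.05 were 1 and 2 of them, beside 3122 and 2878 of all 36527 genes. Snai1 in KO tumors had 4.18, 2.29 and 1.71 CPM at week 8 and 6.66, 4.98 and 3.94 CPM at week 12, so the weeks overlapped at 1 library, with a change of 0.92 ± 0.29 (edgeR adjusted p = 0.56). Without that library, the tumor of week 8 replicate 1, Snai1 was at 1.38 (edgeR adjusted p = 0.0529, called). Vim had 113, 48.2 and 108 CPM at week 8 and 95.5, 229 and 139 CPM at week 12 in KO tumors (0.78 ± 0.36, edgeR adjusted p = 0.633). Cdh1 moved by 0.24 ± 0.16 in WT and 0.01 ± 0.16 in KO. Grhl2 in WT tumors moved by 0.32 ± 0.13 (edgeR adjusted p = 0.54), and its highest library, the tumor of week 10 replicate 1 at 182 CPM, also had the highest Vim of the WT tumors (178 CPM).

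Each single week set 3 tumors against 2 glands. In WT, 0 of 10 were called at week 6 (5.86% of all genes called), 3 at week 8 (Cdh2, Zeb2 and Twist2; 9.19% called) and 1 at week 10 (Cdh2; 6.13% called). In KO, 1 was called at week 8 (Zeb2; 2.49% called) and 0 at week 10 (5.66% called) and at week 12 (6.11% called). The Twist2 value at WT week 8 was -3.12 (edgeR adjusted p = 0.0727), and -0.30 (edgeR adjusted p = 0.99) without the gland of replicate 2. At WT week 6, 2 had an unadjusted p under 0.05 (5658 of all 36527 genes) and DESeq2 called Cdh2. At KO week 10 there were 2 as well (5505 of all genes) and DESeq2 called Cdh2. At KO week 12 there was 1 (5804 of all genes) and DESeq2 called none.

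Other genes of the program were then counted by lists, which were drawn up with earlier results of these data known. Of 34 mesenchymal genes tested, 24 fell and none rose in WT tumors, and 16 fell and 1 rose in KO tumors, with median log2 fold changes of -1.71 and -0.81 against 0.03 and 0.09 over all genes. The called share of this list was 70.6% in WT and 50% in KO, against 15.7% and 10.6% over all genes. Without the 2 WT glands rich in fibroblast markers, 20 fell and 2 rose in WT, with a median of -1.18 against 0.16 over all genes, of which 11.1% were then called. Fbn1, Tagln and Cdh6 were called with and without these glands. Fbn1, the fibrillin of elastic microfibrils, fell by 3.35 ± 0.40 on the log2 scale in WT and by 1.79 ± 0.39 in KO. Tagln, an actin-binding protein of smooth muscle, fell from a median of 1396 CPM in WT glands to 150 in WT tumors and from 1672 to 160 CPM in KO mice. Cdh6, a cadherin, fell by 3.29 ± 0.49 and 1.54 ± 0.48. Tagln and other contractile genes of this list are also made by myoepithelial cells, and collagen genes of it are also on the fibroblast list.

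Of 34 epithelial genes, 3 rose and 3 fell in WT and 5 rose and 3 fell in KO, while 28 and 26 were not called (medians 0.18 and 0.20). The called share was 17.6% in WT and 23.5% in KO, against 15.7% and 10.6% over all genes. Without the 2 WT glands 7 rose and 3 fell in WT, a share of 29.4% against 11.1% over all genes. Ehf, an Ets factor of epithelial cells, rose by 1.36 ± 0.16 in WT and 1.09 ± 0.16 in KO. Marveld3, a tight junction protein, rose by 0.74 ± 0.11 and 0.85 ± 0.11, and Grhl1, a relative of Grhl2, rose by 0.73 ± 0.17 in WT and was at 0.49 ± 0.16 in KO, not called. The genes that fell were Krt19, a keratin, at -2.18 ± 0.24 and -1.41 ± 0.23, Cdh3 (P-cadherin, a cadherin of basal cells) at -2.04 ± 0.26 and -1.93 ± 0.26, and Dsp (desmoplakin, of desmosomes) at -1.15 ± 0.13 and -0.94 ± 0.13.

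Among 20 other transcription factors tied to the transition, 4 rose and 7 fell in WT (55% called, against 15.7% over all genes), and 5 rose and 3 fell in KO (40% called, against 10.6%). Without the 2 WT glands 4 rose and 5 fell in WT (45%, against 11.1%). Id2 and Id1, inhibitors of basic helix-loop-helix factors, rose by 1.46 ± 0.26 and 1.05 ± 0.22 in WT and by 1.27 ± 0.26 and 1.12 ± 0.22 in KO. Foxc1, a forkhead factor, rose from a median of 58.3 to 117 CPM in WT and from 54.6 to 111 CPM in KO. Prrx1, a homeobox factor of mesenchyme, had 0.996 to 19.7 CPM in WT glands and 0.499 to 1.76 CPM in WT tumors. It fell by 2.51 ± 0.36 in WT, by 1.41 ± 0.32 without the 2 WT glands, and was at -0.30 ± 0.37 in KO, not called. Foxc2 fell by 1.49 ± 0.34 and 1.01 ± 0.36 and was at 1.04 CPM in its highest WT gland.

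Of 13 genes of the TGF-beta input, which induces the transition in many epithelia, 3 rose in each genotype, and 2 fell in WT and none in KO (38.5% and 23.1% called, against 15.7% and 10.6% over all genes). The ligand gene Tgfb3 rose from a median of 107 to 345 CPM in WT and from 112 to 351 CPM in KO, by 1.71 ± 0.22 and 1.65 ± 0.22. Tgfb2 rose by 0.78 ± 0.13 and 0.88 ± 0.13, and the co-receptor gene Tgfbr3 by 1.26 ± 0.33 and 0.90 ± 0.33. Tgfb1 fell by 0.73 ± 0.15 in WT and was at -0.23 ± 0.15 in KO, and Ltbp1, a carrier of latent TGF-beta, fell by 0.75 ± 0.16 and was at 0.01 ± 0.16. Without the 2 WT glands neither was called in WT (Tgfb1 -0.48, Ltbp1 -0.46), and of the list 3 rose and 0 fell, a share of 23.1% against 11.1% over all genes.

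None of 12 tested genes among the partners of the Zeb factors and the miR-200 family was called by edgeR in either genotype (15.7% and 10.6% of all genes called). In each genotype 4 had an unadjusted p under 0.05, as did 10535 of all 36527 genes in WT and 8516 in KO. DESeq2 called 1 higher in WT and 0 in KO, where it called 15.6% and 11.2% of all genes. The rows of the miR-200 hairpins held few reads, as libraries of long RNA capture mature microRNAs poorly: Mir200a had 1 to 62 reads per library, Mir200b 1 to 26, Mir200c 0 to 14 and Mir141 0 to 6, and Mir429 and Mir205 had 0 in all 33. They do not measure the mature microRNAs.

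**Figure D5:**
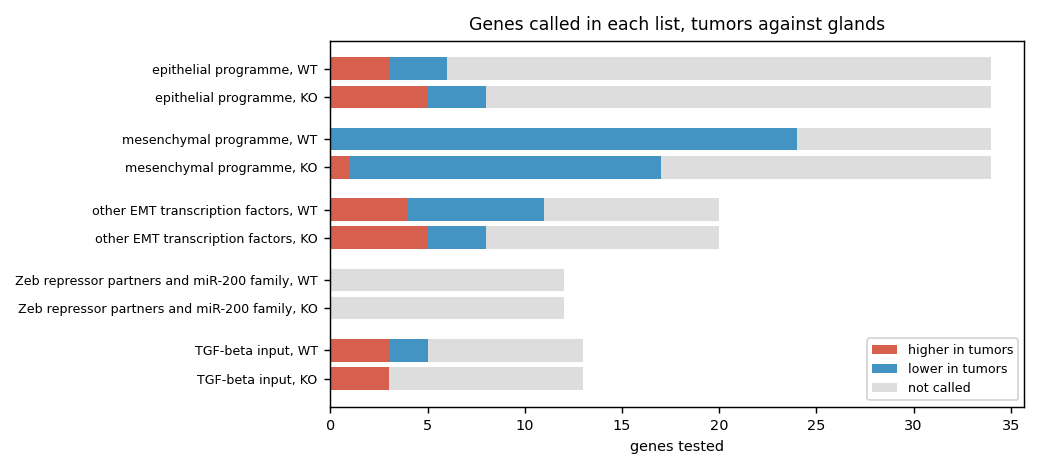
Number of genes higher, lower and not called in tumors against glands for each list, in WT and KO. The mesenchymal list is mostly lower (24 of 34 in WT, 16 of 34 in KO), and the epithelial list is mostly not called.

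The genes most like each member were searched among 13324 genes with a mean of at least 1 CPM, by the Pearson r of log2 CPM over the 33 libraries. Tumors and glands differ, so the range of r within the 19 tumors and within the 14 glands stands beside each trio. Cdh2 was nearest to Slc39a6 (0.869), Rtn1 (0.865) and Dgkk (0.865), with 0.666 to 0.690 in tumors and 0.770 to 0.849 in glands. Snai1 was near to Lpgat1 (0.871) and Nfe2l3 (0.835), with 0.881 to 0.883 in tumors and 0.781 to 0.841 in glands. Twist2 was nearest to Emilin2, Dcn (0.828) and Pygm (0.799), with 0.605 to 0.772 in tumors and 0.828 to 0.871 in glands, and of these Dcn is a fibroblast marker. Zeb2 was nearest to Tango2 (0.761), Padi4 (0.740) and Btc (0.728), with 0.186 to 0.378 in tumors and 0.844 to 0.895 in glands. Epcam was nearest to Padi4 (0.911), Ptbp3 (0.850) and Nmi (0.841), with 0.835 to 0.854 in tumors and 0.872 to 0.943 in glands. For Grhl2 the trio was Zfp521 (0.895), Foxo3 (0.869) and Trps1 (0.862), with 0.864 to 0.877 in tumors and 0.498 to 0.686 in glands. For Cdh1 it was Adam10 (0.782), Mast4 (0.779) and Slc35c1 (0.763), with 0.824 to 0.881 in tumors and 0.633 to 0.719 in glands. Vim was nearest to Loxl3 (0.788), Tmem263 (0.745) and Hunk (0.743), with 0.667 to 0.791 in tumors and 0.776 to 0.860 in glands. Twist1 was nearest to Lnx1 (0.743), Aifm3 (0.703) and Sh2d4a (0.702), with 0.160 to 0.618 in tumors and up to 0.816 in glands. Zeb1 had the lowest values over the 33 libraries, with Mef2a (0.594), Tecpr1 (0.570) and Stk38l (0.562), at 0.514 to 0.659 in tumors and 0.567 to 0.694 in glands.

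Among the members, Cdh2 had an r over the 14 glands of -0.713 with Cdh1, -0.619 with Epcam and -0.021 with Grhl2. Zeb2 had 0.636 with Cdh1, 0.913 with Epcam and -0.485 with Grhl2. Over the 19 tumors the values were 0.248, -0.296 and -0.241 for Cdh2 and 0.145, -0.077 and -0.432 for Zeb2. Zeb1 and Zeb2 had an r of 0.704 in tumors and 0.112 in glands. Cdh2 and Snai2 had 0.785 in glands and 0.282 in tumors. These values share libraries, depth and scaling factors, and are descriptions.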

How the data were processed

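Total RNA libraries from sorted GFP+ cells of 33 mice were examined. Per the methods and the labels, the authors aligned reads with HISAT to GENCODE M16 and GRCm38, removed duplicates with Picard 1.128 and counted genes with HTSeq; whether counting used the strand is not given in the sources used here, so overlapping genes of opposite strand may share reads. The authors deposited whole-number counts per gene and a table of normalized counts (unit signal, read as coverage scaled by size factors with R 3.6.2 and DESeq2), from which whole reads were recovered as an alternative: 100% of values were whole multiples of 1 step per library within 0.01 reads, and 82.8% of recovered reads equalled the count table (members differed by at most 2.44%).

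From the deposited counts, a gene was kept if its reads over all 33 libraries came to 10 or more (36527 of 55487; 111 rows that name no gene were left out). Counts were scaled by TMM and fitted with edgeR 4.0.16 in R 4.3.3 (glmQLFit, glmQLFTest), with 1 coefficient per genotype, tissue and week, p-values adjusted by Benjamini-Hochberg over all genes tested, and calls at a fold over 1.5 and an adjusted p under 0.1. CPM use the TMM library sizes, and correlations log2(CPM + 0.1). DESeq2 1.42.0, other filters, scalings and covariates, and fits without each library were alternatives; the latter kept the trended dispersion of the full fit. The mice are separate animals. No pair of libraries of a group agreed within counting noise (chi-square per degree of freedom at least 42.3 over 25 pairs). Depth of 28419983 to 130981596 reads limits Twist1 and Twist2 most. The method was tested on simulated data for the WT tumor against gland comparison (35047 genes): 87% of genes changed 2-fold and 99% of those changed 4-fold were recovered. Among the unchanged genes 14 were called. The changed genes had a mean of at least 1 CPM, so these rates do not cover genes as weak as Twist1 and Twist2. Each gene was simulated around 1 mean, without single high glands, so the rates do not cover the Zeb2 and Twist2 calls that rest on such glands. Named genes were all members, Snai2, the miR-200 rows, the 3 higher and 3 lower called genes of largest change in WT for each other list (pathways and cell type markers, from which examples are given), and the 3 most alike genes per member, of which 1 is not reported here. Pthlh and Zeb2os were added as checks outside this rule, and the counts of the other lists without 2 WT glands and by DESeq2 were added after seeing the data. The 10 members and the lists were chosen with earlier results of these data known.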

Additional observations from a re-analysis of the deposited data

Results flagged for a closer look

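Among the 40 sets of libraries examined (10 genes in each genotype and tissue), 5 held a library far from the others by Dixon's criterion, which flags about 1 in 20 sets by chance. Cdh1 was at 1010 CPM in the WT gland of week 10 replicate 2, where the nearest of 8 WT glands had 832 CPM. It was at 1015 CPM in the WT tumor of week 10 replicate 2, where the nearest of 10 WT tumors had 816 CPM. Cdh2 was at 60.0 CPM in the WT tumor of week 6 replicate 3, against 30.2 CPM in the nearest WT tumor. Without that tumor the Cdh2 difference between WT and KO tumors at matched stage was -1.14 (edgeR adjusted p = 0.0297). With it the difference was -0.87 (edgeR adjusted p = 0.117) and was not called. The tumor was picked by its high Cdh2, so a lower value without it was set by the choice. Vim was at 178 CPM in the WT tumor of week 10 replicate 1, against 126 CPM in the nearest. Grhl2 was at 101 CPM in the KO gland of week 10 replicate 2, against 117 CPM in the nearest of 6 KO glands.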

How the results depend on the processing

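Cdh2 was called in WT tumors against glands in all 32 fits without 1 library (-1.93 to -1.28) and in all 11 other settings; in KO it was called in all 11 other settings and in 30 of 32. The number of the 10 genes called in WT went from 4 to 1 without the 2 glands rich in fibroblast markers, where Twist2 turned to 1.52 and Zeb2 at week 8 to 0.004. Over the 32 fits Twist2 ran from -2.25 to 0.585 in WT, and Zeb2 at week 8 from -2.77 to 0.004. Twist2 turned to 0.585 without the WT gland of week 6 replicate 2, and Zeb2 at week 8 to 0.004 without that of week 8 replicate 2. In both fits where Twist2 turned, the 1 gland left at week 6 had no Twist2 reads. Vim in WT was lost with the ribosomal RNA share as a covariate (-0.52, edgeR adjusted p = 0.15) and without any 1 of the WT glands of week 10 replicate 1, week 8 replicates 1 and 2 and week 6 replicate 2, the WT tumors of week 10 replicates 2 and 3, week 8 replicate 2 and week 6 replicate 2, or the KO glands of week 12. Zeb2 in KO was lost without any 1 of the KO glands of weeks 8 and 10 or of week 12 replicate 1, or of the KO tumors of week 8 replicates 1 and 3, week 10 replicates 1 and 2 and week 12 replicate 1. Where the count of called genes was 0, it became 1 for the difference of the tumor effects at matched stage (Zeb2, by DESeq2, without a filter and at 1 CPM in at least 2 libraries) and at matched age (Zeb2, by DESeq2 and without a filter). It became 1 for WT against KO tumors at matched stage (Cdh2, by DESeq2, without a filter, at 1 CPM in 2 libraries, with the replicate block and in a fit of the libraries compared only) and at matched age (Cdh2, by DESeq2, without a filter and in the fit of the libraries compared only). At WT week 6 it became 1 (Cdh2) by DESeq2, without a filter, at 1 CPM and with the block, and 4 in the fit of those libraries only (Cdh2, Vim, Zeb1 and Zeb2). At WT week 8 that fit gave 5 in place of 3, and at KO week 10 it gave 2 (Cdh2 and Vim) in place of 0, while DESeq2, no filter and the block gave 1 (Cdh2). Within weeks, Cdh2 lost its call at WT week 8 without the gland of replicate 1 (-1.02) or the tumor of replicate 3 (-1.68) and at WT week 10 without the gland of replicate 1 (-0.63) or the tumor of replicate 1 (-1.78), Zeb2 at KO week 8 without either gland or the tumor of replicate 3, and Twist2 at WT week 8 without any 1 of the 3 tumors or the gland of replicate 2 (-0.30) and with the replicate block (-2.59). The cause was not tested. Without 1 library, the counts ran from 1 to 4 in WT, 0 to 3 in KO, 1 to 4 at WT week 8, and 0 to 1 for both differences of effects, WT against KO tumors at matched stage, glands, KO week 12 against week 8, WT weeks 6 and 10 and KO weeks 8 and 10; they were 0 to 0 for tumors at matched age, WT week 10 against week 6 and KO week 12. Fits that left 1 library in a group assume that it varies like the other groups.

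Replicate numbers did not pair the samples: over 171 pairs of the same number the correlation of deviations ran from -0.369 to 0.339 with a median of 0, and 15 of 32 libraries correlated best with their own number. With the replicate block, 3 of the 10 genes were called in WT (Twist2 at -1.39, edgeR adjusted p = 0.175) and 3 in KO. Over all genes, the count for the difference at matched stage was 51. It became 671 by DESeq2, 732 without a filter, 226 at 1 CPM, 22 with the block and 29 in the fit of the libraries compared only. It was 14 with an adjusted p under 0.05 and no fold minimum, where both limits changed. The count at matched age was 2 and became 74 by DESeq2, 138 without a filter and 1 in the compared-only fit. WT against KO tumors gave 404 at matched stage and 655 by DESeq2, 632 without a filter and 206 with the covariate. At matched age 187 became 664, 573, 397 at 1 CPM, 116 with the covariate, and 111 with an adjusted p under 0.05 and no fold minimum. Glands gave 331, and 741, 722, 52 with the covariate, and 196 with an adjusted p under 0.05 and no fold minimum. WT week 10 against 6 gave 4, and 253, 440, 59 in its own fit and 0 at 1 CPM. With an adjusted p under 0.05 and no fold minimum it gave 0. KO week 12 against 8 gave 0, and 125, 176 and 8. WT tumors against glands gave 5747 and 3752 at 1 CPM. In single weeks, WT week 6 gave 2139, and 3686 in its own fit. KO week 8 gave 909, and 1695 by DESeq2, 1613 without a filter and 2149 in its own fit. With an adjusted p under 0.05 and no fold minimum KO week 8 gave 606. KO week 10 gave 2067 and 3720, and KO week 12 gave 2233 and 1322, in their own fits.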

Other observations

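The WT tumor of week 12, the 1 library of its age, enters none of the tested contrasts. It had 23.0 CPM of Cdh2, within the range of the younger WT tumors, and the lowest Snai1 of the WT tumors (1.80 CPM). Its Twist1 level of 0.796 CPM rested on 81 reads, the most in any of the 33 libraries, and its Vim level was 126 CPM.

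Markers of cell lineages also differed between tumors and glands. Elf5, a factor of luminal progenitors, rose by 3.01 ± 0.27 on the log2 scale in WT and 2.21 ± 0.26 in KO, while 2 genes of hormone-sensing luminal cells fell: Foxa1 changed by -3.93 ± 0.30 in WT and -3.25 ± 0.29 in KO, and Pgr by -5.47 ± 0.50 and -4.25 ± 0.49. Among basal genes, Myh11, the smooth muscle myosin, fell from a median of 1027 to 68.5 CPM in WT and from 1130 to 83.8 CPM in KO. Cdh19, a cadherin of Schwann cells, rose from a median of 0.0795 to 6.24 CPM in WT and from 0.0768 to 3.11 CPM in KO, and Sox10, which is expressed in Schwann cells and in mammary epithelium, rose by 0.84 ± 0.24 and 0.88 ± 0.24. Sox10 is also on the list of other transcription factors tied to the transition and was already counted there. Over all genes 15.7% were called in WT and 10.6% in KO. Of the lists not described so far, 5 of 10 endothelial markers fell in WT and 1 in KO, 6 of 8 pericyte markers fell and 1 rose in WT against 3 and 1 in KO, and 2 of 10 macrophage markers rose and 3 fell in WT against 4 and 0 in KO. For lymphocytes 1 of 10 fell in each genotype, for adipocytes 2 of 10 fell in WT and 0 in KO, and for Schwann cells 3 of 10 rose and 2 fell in each. Without the 2 WT glands rich in fibroblast markers, where 11.1% of all genes were called, the WT counts were 1 lower for endothelial, 3 lower and 1 higher for pericyte, 4 higher and 0 lower for macrophage, 0 for lymphocyte and adipocyte, and 2 higher and 2 lower for Schwann cell markers.

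Without 1 library the all-gene counts, which set the background shares, ran from 11 (KO gland week 8 replicate 2) to 640 (KO gland week 12 replicate 1) for the difference at matched stage, 0 (KO gland week 10 replicate 1) to 14 (WT gland week 8 replicate 1) at matched age, 180 and 53 (KO tumor week 8 replicate 2) to 696 and 585 (KO tumor week 8 replicate 1) for tumors at matched stage and age, and 61 (KO gland week 8 replicate 2) to 773 (KO gland week 12 replicate 1) for glands. They reached 374 for WT week 10 against 6 (without WT tumor week 10 replicate 3) and 211 for KO week 12 against 8 (without KO tumor week 8 replicate 1), and fell to 492 at WT week 6 (gland replicate 2), 2202 at WT week 8 (gland replicate 2), 1212 at WT week 10 (gland replicate 1), 45 at KO week 8 (gland replicate 1), 690 at KO week 10 (gland replicate 2) and 1448 at KO week 12 (tumor replicate 2).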
